A study of Rattus norvegicus with 18 samples.

Results

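Expression of the MHC class II genes was followed in encephalitogenic rat T-MBP cells, CD4+ T cells reactive to myelin basic protein, by 3′ mRNA-seq. The genes were the 8 rows named *Cd74*, *RT1-Da*, *RT1-Db1*, *RT1-Ba*, *RT1-Bb*, *RT1-DMa*, *RT1-DMb* and *Ciita*, out of 32882 genes in each of 3 tables. They were chosen from values of these same comparisons, so their differences between KO and control cells are given as a description, without a test of their own. The 18 libraries formed 6 groups of 3. Spinal cord parenchyma gave *Ets1*-KO cells and NT cells, the spleen gave *Ets1*-KO cells with a further set of NT cells, and *Grk2*-KO cells with their own NT cells came from the spleen in a separate comparison. All cells were isolated on day 3 after intravenous transfer into Lewis rats, for which the labels give no age. For the parenchyma, the paper describes *Ets1*-KO and control cells taken from rats that had received both. The labels do not say which libraries share a rat. Before transfer all cells had been restimulated with MBP and irradiated thymocytes. The cells were edited as bulk populations, with Cas9 and a guide against *Ets1* or *Grk2*, or with a non-targeting (NT) guide. According to the labels, control cells were sorted by BFP and KO cells by GFP in every comparison, so genotype, fluorescent protein and sort gate cannot be told apart. Only spleen cells were enriched for CD4 before the sort, and only parenchyma cells passed a Percoll gradient.

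MHC class II molecules present peptides to CD4+ T cells. They are heterodimers of an α and a β chain, encoded in the rat by *RT1-Ba* and *RT1-Bb* (the RT1.B molecule) and by *RT1-Da* and *RT1-Db1* (the RT1.D molecule). *Cd74* encodes the invariant chain, which binds new dimers and takes them to the endosome, and *RT1-DMa* and *RT1-DMb* encode the DM heterodimer, which exchanges the invariant chain remnant for peptide. *Ciita* encodes the transactivator that gathers on a shared promoter module, whose X and Y boxes bind the RFX and NF-Y complexes. Class II is best known from B cells, dendritic cells and macrophages, and activated T cells of the rat and of humans can also carry it.

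Upstream sequences of the members are shown because a shared promoter module is the textbook link between these genes. RefSeq (build GRCr8) gave a promoter for 6 of the 8 members, that is 250 bases before and 50 bases after a transcript start, and none was at hand for *Ciita* and *RT1-DMb*. Capitals mark exact matches to AGCAAC, a core of the X box, and to GATTGG, a core of the Y box (the inverted CCAAT box), on either strand. The matches do not overlap each other. For 5 genes the stretch from 130 to 26 bases before the start is printed on the gene's strand, and for *Cd74*, where an annotated transcript begins further upstream, 30 bases around the match. The stretches lie at chr18:56527123-56527152 (plus strand) for *Cd74*, and on chromosome 20 at chr20:4515285-4515389 (plus) for *RT1-Da*, chr20:4560188-4560292 (minus) for *RT1-Db1*, chr20:4576927-4577031 (plus) for *RT1-Ba*, chr20:4604144-4604248 (minus) for *RT1-Bb* and chr20:4712361-4712465 (minus) for *RT1-DMa*.
Cd74: cagttccacattAGCAACgtgggcggagtg
RT1-Da: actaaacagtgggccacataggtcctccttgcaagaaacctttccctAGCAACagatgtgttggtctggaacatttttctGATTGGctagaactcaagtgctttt
RT1-Db1: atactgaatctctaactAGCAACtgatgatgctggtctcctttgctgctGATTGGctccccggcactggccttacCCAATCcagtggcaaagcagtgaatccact
RT1-Ba: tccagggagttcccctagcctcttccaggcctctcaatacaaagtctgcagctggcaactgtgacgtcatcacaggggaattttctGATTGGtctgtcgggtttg
RT1-Bb: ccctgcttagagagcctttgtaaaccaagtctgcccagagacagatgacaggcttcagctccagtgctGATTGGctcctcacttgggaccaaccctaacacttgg
RT1-DMa: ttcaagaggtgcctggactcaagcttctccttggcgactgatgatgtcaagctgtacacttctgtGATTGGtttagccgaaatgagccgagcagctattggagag

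The X box core was found in 3 of the 6 promoters, 71 bases before the start of *Cd74*, 83 before that of *RT1-Da* and 113 before that of *RT1-Db1*. The Y box core was found in 5 of the 6, all but *Cd74*, between 44 bases (*RT1-Ba*) and 81 bases (*RT1-Db1*) before the start, and *RT1-Db1* held it once more on the other strand at 55 bases. *RT1-Da* and *RT1-Db1* held both cores. Among 33469 rat promoters of the same length, 14.7% held AGCAAC, 14.8% held GATTGG and 2.09% held both. A missing match says only that these exact letters are not in the window, and *RT1-DMa*, which was not detected in these cells (given with the levels), held the Y box core as well.

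**Figure D1:**
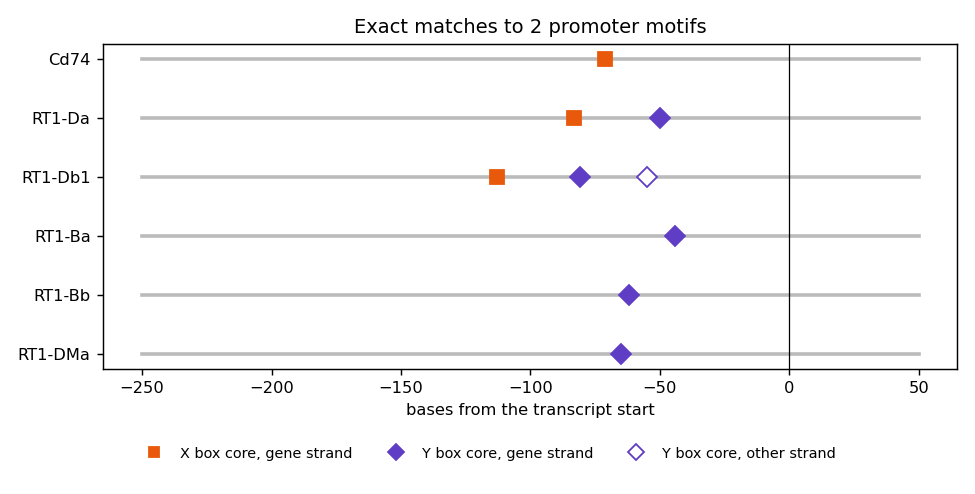
Exact matches to the X box core (squares) and the Y box core (diamonds) in 6 promoters, each drawn as a grey line. The horizontal axis gives the distance in bases from the transcript start, and each row is a gene. *RT1-Da* and *RT1-Db1* carry both cores, *Cd74* the X box core, and the other 3 genes the Y box core, and all matches lie between 44 and 113 bases before the start.

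Between 898092 and 2248258 reads fell on genes per library, and in the spleen *Ets1* table every KO library was deeper than every NT library (1909862 to 2248258 against 898092 to 1213485 reads). Normalized counts are reads divided by the authors' size factor of the library, set within each table. In the *Grk2* table, *Grk2* itself had 166, 166 and 142 normalized counts in NT and 53.3, 64.2 and 87.3 in KO cells (log2 fold change -1.22, SE 0.13, limma adjusted p = 1.76e-12). *Ets1* did not differ between cells labelled *Ets1*-KO and NT cells in the parenchyma (0.09, SE 0.07, limma adjusted p = 0.56) or the spleen (-0.06, SE 0.11, limma adjusted p = 0.854). The position of the edits was not examined here, and these 3′ reads do not check the *Ets1* labels. The paper reports testing the KO efficiency of its single-KO lines on DNA before use, and blotting for ETS1 protein.

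T cell markers (*Cd3e*, *Cd3d*, *Cd3g*, *Cd4*, *Cd2*, *Cd5*, *Lck*, *Cd247*) summed to 2597 to 3378 CPM (reads per 1000000 reads on genes) in the 18 libraries. In the parenchyma every *Ets1*-KO library (3246 to 3378) was above every NT library (2980 to 3162), and in both spleen tables the groups overlapped. None of the 8 passed an adjusted p under 0.05 in any table in limma or edgeR. At an unadjusted p under 0.05 in limma there were 3 in the parenchyma, 1 in the spleen *Ets1* and 1 in the *Grk2* table. Over all genes there were 1186 of 7002, 984 of 6979 and 728 of 6985. Markers of cells that present antigen were low. The 18 myeloid markers summed to at most 59.8 CPM in the parenchyma, 19.1 in the spleen *Ets1* table and 7.47 in the *Grk2* table, where *Adgre1*, *C1qa*, *C1qb*, *C1qc*, *Mrc1* and *Spi1* were at 0 reads in all 6 libraries. Of the 9 B cell markers, *Ms4a1*, *Cd22*, *Pax5*, *Cd79b*, *Ighm*, *Blnk* and *Jchain* were at 0 in all parenchyma libraries, *Cd79a*, *Cd79b*, *Cd22*, *Pax5* and *Jchain* in the spleen *Ets1* table, and *Ms4a1*, *Cd22*, *Pax5* and *Jchain* in the *Grk2* table. *Flt3*, *Clec9a* and *Siglech*, which mark dendritic cells, were at 0 in all 18 libraries. Thymocyte markers stayed at or under 7.2 CPM. In the parenchyma they summed to 0 to 2.67 CPM in NT and 4.81 to 7.2 in *Ets1*-KO libraries. Most of these reads were of *Cd8a* (4, 0 and 1 in NT and 10, 7 and 5 in KO cells).

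**Figure D2:**
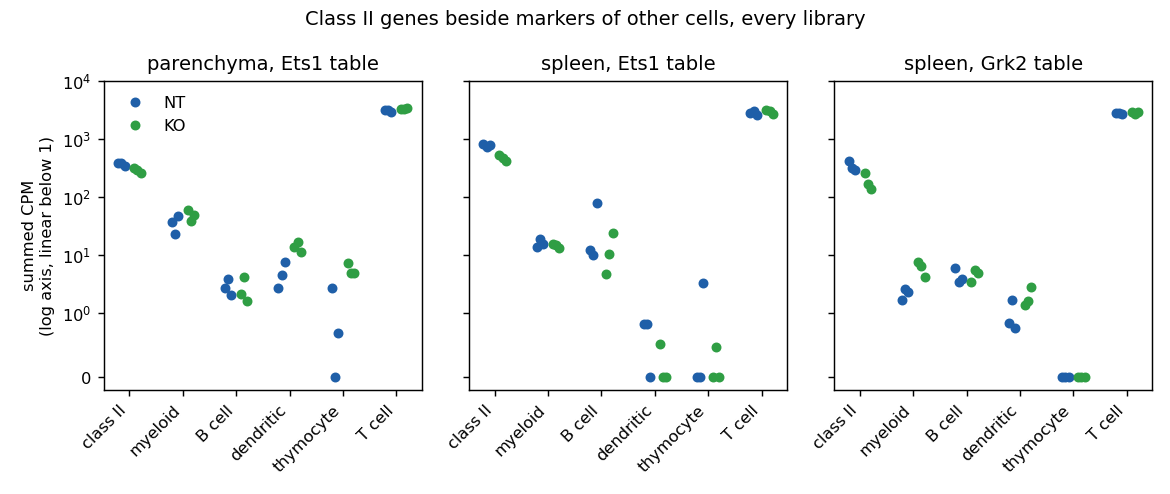
Summed CPM of the 8 class II genes and of 5 marker lists in each library (vertical axis, logarithmic and linear below 1), for NT (blue) and KO cells (green), 1 point per library and 1 panel per table. The class II sum lies between 140 and 808 CPM, above every sum of myeloid, B cell, dendritic and thymocyte markers, of which the highest is 77.9.

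Class II transcripts of control cells differed between the experiments within the spleen as well as between tissues. The 8 members summed to 385, 381 and 344 CPM in parenchymal NT cells, to 808, 739 and 799 in spleen NT cells of the *Ets1* experiment, and to 411, 320 and 289 in spleen NT cells of the *Grk2* experiment. The spleen libraries of the *Ets1* experiment were thus above the parenchymal ones and 2.3 times the other spleen libraries, without overlap with either, and the spleen libraries of the *Grk2* experiment overlapped the parenchymal ones (0.919 times). Tissue and experiment cannot be told apart in these levels, and since the tables were scaled separately no test was made. In bulk RNA, fewer cells with class II transcripts and less class II RNA per cell cannot be told apart either.

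*Cd74*, the invariant chain (ENSRNOG00000018735, chr18:56071477-56080849 in Rnor_6.0, plus strand), had 281, 256 and 254 CPM in parenchymal NT cells, 448, 413 and 513 in spleen NT cells of the *Ets1* experiment and 197, 167 and 170 in those of the *Grk2* experiment. The order for *Cd74* was therefore spleen *Ets1* experiment, parenchyma, spleen *Grk2* experiment, with no overlap between neighbours. *RT1-Db1*, the RT1.D β chain (ENSRNOG00000033215, chr20:4087617-4097190, plus), had 177 ± 10.5 CPM (SD, n = 3) in the first of these groups, and 58.7 ± 8.38 and 58.7 ± 18.7 in parenchyma and in the *Grk2* experiment, which overlapped. *RT1-Ba*, the RT1.B α chain (ENSRNOG00000000451, chr20:4066131-4070721, minus), had 63.1 ± 2 against 22.8 ± 8.05 and 33 ± 4.89 in the same order of groups, the latter groups again overlapping.

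*RT1-Da* and *RT1-Bb* followed another order. *RT1-Da*, the RT1.D α chain (ENSRNOG00000032844, chr20:4127643-4132616, minus), was at 49.9 ± 21.6 and 47.4 ± 12.6 CPM in the spleen NT cells of the *Ets1* and *Grk2* experiments, which overlapped, and at 17.8 ± 1.04 in parenchymal NT cells, below every spleen NT library. *RT1-Bb*, the RT1.B β chain (ENSRNOG00000032708, chr20:4039412-4049711, plus), was at 32.4 ± 10.3 and 21.9 ± 11.4 in the spleen groups, which overlapped, and at 6.45 ± 1.58 in the parenchyma, again below both without overlap. For these chains the NT cells of both spleen experiments were above the parenchymal NT cells, which was not so for *Cd74*, *RT1-Db1* or *RT1-Ba*.

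**Figure D3:**
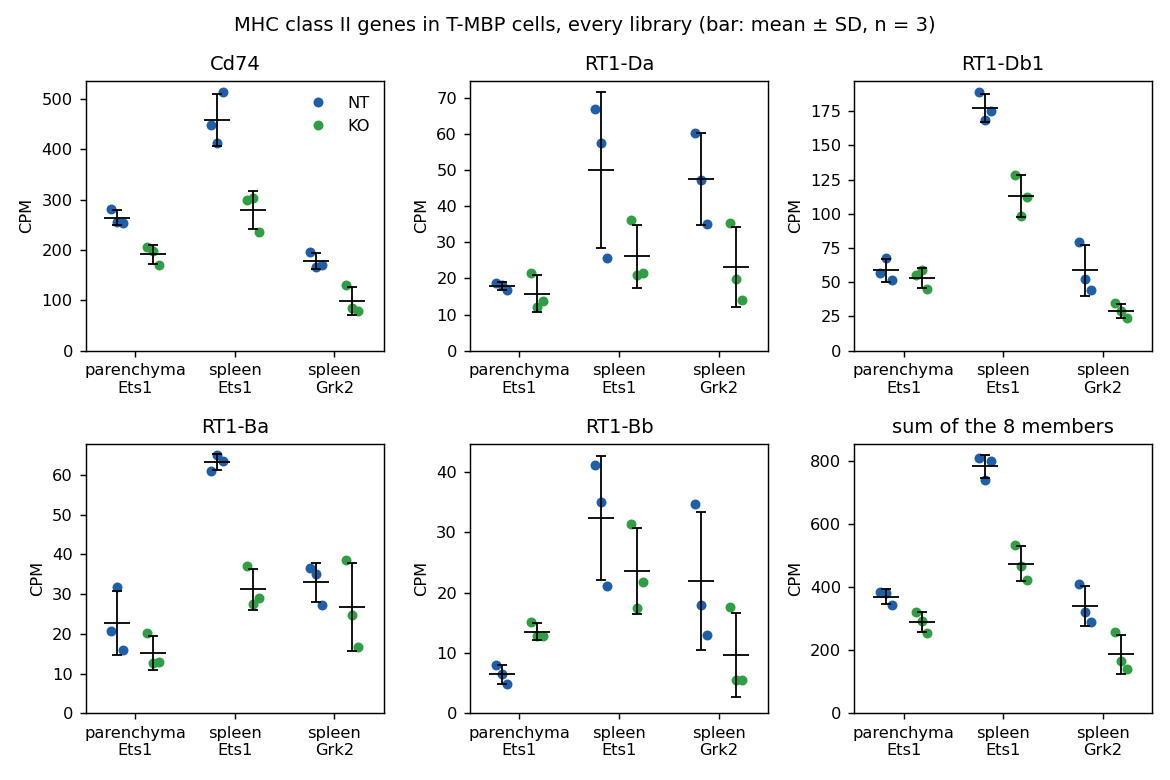
CPM (vertical axis, from 0) of the 5 detected class II genes and of the sum of all 8 members, by table, for NT (blue) and KO (green) libraries. Points are libraries, and the bars give mean ± SD (n = 3). In the sum, every KO library lies below every NT library of its own table, and *RT1-Bb* in the parenchyma is the one panel position where every KO library lies above.

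The remaining members, and the genes *RT1-DOa* and *RT1-DOb*, were near or under detection. *RT1-DMb* (ENSRNOG00000049491, chr20:3945600-3952846, plus) had 0 reads in all 18 libraries, which allows up to 1.33 to 3.34 CPM per library (3 reads, counting error only). *RT1-DMa* (ENSRNOG00000047854, chr20:3935528-3938915, plus) had 1 read in all, in a spleen NT library of the *Ets1* experiment. *Ciita* (ENSRNOG00000002659, chr10:5213349-5260608, minus) had a read in 15 of 18 libraries and at most 5 in any, 26 in total. By group, *Ciita* had 3 reads in NT and 2 in KO cells of the parenchyma, 3 and 8 in the spleen *Ets1* table, where the KO libraries were deeper, and 5 and 5 in the *Grk2* table, too few to read a difference from. *RT1-DOa* and *RT1-DOb*, which encode the inhibitor of DM, had 0 to 4 reads per library. The reference strain carries another RT1 haplotype than Lewis rats, and reads of near-identical class II genes may be lost or shared in counting, and the part of either in these zeros was not tested.

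In the spleen, *Ets1*-KO cells had less class II RNA than NT cells. The sum of the members was 1072, 955 and 1125 normalized counts in NT cells and 697, 612 and 594 in *Ets1*-KO cells, 39.6% lower, with no overlap. *Cd74* had 595, 534 and 722 normalized counts in NT cells and 391, 397 and 332 in KO cells, a log2 fold change of -0.72 (SE 0.13). Every KO library was below every NT library.

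The chains of both dimers were lower too. *RT1-Ba* had 80.9, 83.9 and 89.3 normalized counts in NT and 48.6, 36 and 40.6 in *Ets1*-KO cells of the spleen (log2 fold change -1.01, SE 0.19), and *RT1-Db1* had 251, 217 and 246 against 168, 128 and 158 (-0.66, SE 0.13). For these genes too the groups did not overlap. *RT1-Da* had 88.6, 74.2 and 36 in NT and 47.2, 27.3 and 30 in KO cells (-0.85, SE 0.23), where the third NT library overlapped the KO libraries. *RT1-Bb* had 54.7, 45.2 and 29.8 against 41.1, 22.9 and 30.6 (-0.44, SE 0.25), and its groups overlapped as well. Its log2 fold change was -0.18 without replicate 2 and -0.68 without replicate 3.

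Of the 5 members above the count minimum in the spleen *Ets1* comparison, 3 passed an adjusted p under 0.05 in limma, all lower in KO cells, as did 2.22% of all 6979 genes in either direction and 1.2% lower in KO. All KO libraries were below all NT libraries for 3 of the 5 members and for 8.88% of all genes. Nothing is read from these shares, since the members were picked with this contrast in view. The median log2 fold change was -0.72 over the 5 members and 0.00039 over all genes. Without the libraries of replicate 1, 3 genes of all and 0 members passed, and without a variance trend none of either. The third NT library had the highest sum of B cell markers (77.9 CPM, against 9.99 to 12.2 in the other NT and 4.71 to 23.6 in KO libraries), through 62 reads of *Ighm*, the IgM heavy chain. Its class II sum was the highest of the NT libraries in normalized counts and lay between the others in CPM, and without it 4 members passed, with a median of -0.68. The KO libraries of this table were also the deeper ones, and the part of depth in the differences was not tested.

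In the parenchyma the difference was narrower and not shared by all members. The sum of the members was 538, 554 and 487 normalized counts in NT and 449, 420 and 362 in *Ets1*-KO cells, 22.1% lower, again with no overlap. *Cd74*, which took most reads of that sum, had 392, 372 and 359 in NT and 290, 282 and 241 in KO cells (log2 fold change -0.47, SE 0.10, no overlap). *RT1-Ba* had 29, 46.1 and 22.6 against 28.3, 18.2 and 18.1 (-0.54, SE 0.27), with overlap, and without replicate 2 its log2 fold change was -0.17.

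The chains of RT1.D overlapped between groups, with *RT1-Da* at 26.2, 26.3 and 23.6 in NT and 30.3, 17.2 and 19.3 in *Ets1*-KO cells of the parenchyma (-0.22, SE 0.28) and *RT1-Db1* at 79.4, 98.7 and 72.7 against 77.8, 83.9 and 63.5 (-0.15, SE 0.16). For *RT1-Da* the value was -0.43 without replicate 1 and -0.04 without replicate 2. *RT1-Bb* went the other way. It had 11.2, 9.4 and 6.9 normalized counts in NT and 21.2, 18.2 and 18.1 in KO cells (1.01, SE 0.36), so that every KO library was above every NT library and NT cells were under the count minimum of 10 on their own.

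Of the 5 members above the minimum in the parenchyma, 1 passed the adjusted p, lower in KO, beside 5.23% of 7002 genes in either direction and 2.96% lower in KO. All KO libraries were below all NT libraries for 1 of the 5 members and for 10.5% of all genes. Nothing is read from these shares, since the members were picked with this contrast in view. The median log2 fold change was -0.22 over the members and -0.03 over all genes, and the former was -0.43 without replicate 1 and -0.11 without replicate 2. Without a variance trend, 0 members passed. Sums of myeloid markers were 23.3 to 47.3 CPM in NT and 39 to 59.8 in KO cells, and those of dendritic cell markers 2.67 to 7.65 and 11.2 to 17. The latter sum was carried by *Batf3*, a transcription factor also found in activated T cells, with 3, 5 and 6 reads in NT and 16, 18 and 12 in KO cells (1.67, limma adjusted p = 0.00549). *Batf3* was above the count minimum of 10 only through the KO cells (mean 4.47 normalized counts in NT and 16 in KO). Nothing is therefore read from its adjusted p. Over the alternatives the adjusted p of *Batf3* ranged from 0.00226 to 0.167, and it did not pass with replicate 1 or replicate 2 left out, without the count minimum or without a variance trend. Both marker sums were higher in KO cells on average while the class II sum was lower, and their part in the class II values was not tested.

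The difference between *Ets1*-KO and NT cells was set against itself in the 2 tissues by the log2 ratio of the libraries with the same number. For all 5 members the ratio was higher, that is less negative or positive, in the parenchyma, by 0.25 (SE 0.16) for *Cd74*, 0.63 (SE 0.36) for *RT1-Da*, 0.50 (SE 0.19) for *RT1-Db1*, 0.47 (SE 0.34) for *RT1-Ba* and 1.45 (SE 0.41) for *RT1-Bb*. With each replicate left out in turn these differences ranged from 0.10 to 0.36 for *Cd74*, from 0.40 to 0.96 for *RT1-Da* and from 0.30 to 0.75 for *RT1-Ba*. They ranged from 0.48 to 0.53 for *RT1-Db1* and from 1.255 to 1.55 for *RT1-Bb*. In the parenchyma *RT1-Bb* was above the count minimum only through KO cells (mean 9.16 normalized counts in NT and 19.2 in KO). None of the members passed the adjusted p of limma, beside 2.1% of 6520 genes. At an unadjusted p under 0.05 there were 2 of the 5 members and 897 of the 6520 genes. Nothing is read from these shares, since the members were picked with these contrasts in view. The median of the members was 0.50, against -0.04 over all genes. The tables hold no shared library.

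*Grk2*-KO cells of the spleen also had less class II RNA than their NT cells. The sum of the members was 526, 415 and 385 normalized counts in NT and 331, 215 and 183 in *Grk2*-KO cells, 45% lower, with no overlap. *Cd74* had 251, 216 and 226 in NT and 168, 111 and 103 in KO cells (log2 fold change -0.89, SE 0.11), every KO library below every NT library. The same held for the chains of RT1.D, with *RT1-Da* at 77, 61 and 46.5 against 45.4, 25.9 and 18.2 (-1.09, SE 0.21) and *RT1-Db1* at 102, 67.6 and 58.7 against 44.5, 37.3 and 30.9 (-0.97, SE 0.18).

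The chains of RT1.B overlapped between *Grk2*-KO and NT cells. *RT1-Bb* had 44.4, 23.3 and 17.2 normalized counts in NT and 22.7, 7.2 and 7.3 in KO cells (-1.21, SE 0.31), lower in KO in all 3 pairs of libraries with the same number. *RT1-Ba* had 46.6, 45.4 and 36.4 against 49.8, 32.1 and 21.8 (-0.37, SE 0.22), lower in 2 of the 3 pairs, and was at -0.60 without replicate 1 and -0.20 without replicate 3. In both groups of this table the library numbered 1 had the highest sum of class II counts and the library numbered 3 the lowest.

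Of the 5 members above the minimum in the *Grk2* comparison, 4 passed the adjusted p, all lower in KO, beside 1.56% of 6985 genes in either direction and 0.63% lower in KO. All KO libraries were below all NT libraries for 3 members and for 4.62% of all genes. Nothing is read from these shares. The median log2 fold change was -0.97 over the members and 0.02 over all genes. Without replicate 2, 1 member passed, without replicate 1 and without the replicate block there were 2 each, and without a variance trend none. DESeq2, which gave no adjusted p for 2 of the 5 members, called 1 of the other 3. Sums of myeloid markers were low, at 1.7 to 2.57 CPM in NT and 4.19 to 7.47 in KO cells, the opposite direction to class II, and those of B cell markers were 3.42 to 5.94 and 3.39 to 5.58. Their part in the class II values was not tested.

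**Figure D4:**
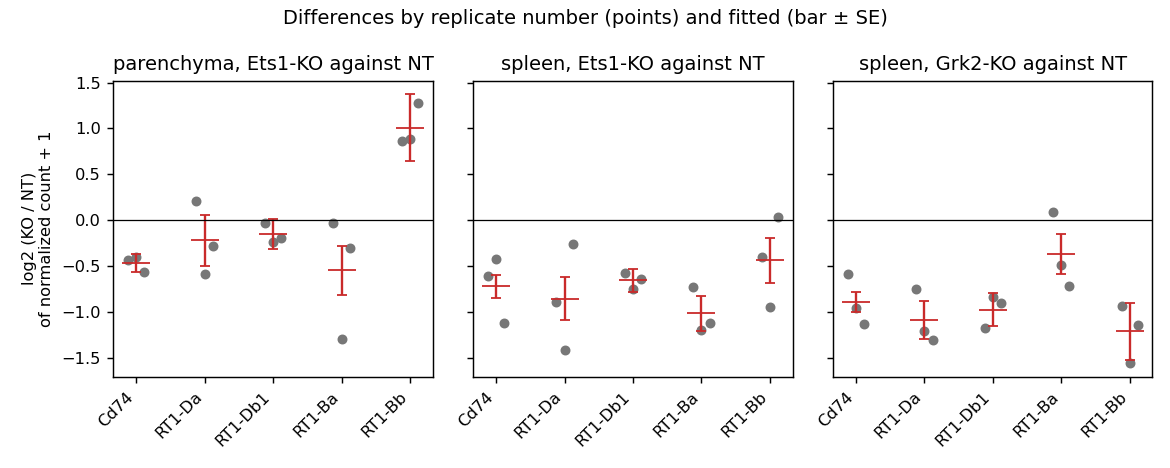
Log2 ratio of KO to NT, on normalized count + 1 (vertical axis), for the 5 class II genes above the count minimum, 1 panel per comparison. Grey points are pairs of libraries with the same replicate number, and red bars are the fitted value ± SE. All 5 fitted values are below 0 in both spleen comparisons, and *RT1-Bb* is at 1.01 in the parenchyma.

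The share of *Cd74* among class II reads was higher in every parenchymal NT library than in any spleen NT library. The spleen tables overlapped in this share, as did KO libraries of the parenchyma and of the spleen *Ets1* table. *Cd74* took 67.2% to 73.7% of the members' reads in parenchymal NT cells and 64.6% to 67.2% in parenchymal *Ets1*-KO cells. In the spleen it took 55.5% to 64.2% in NT and 55.8% to 64.8% in *Ets1*-KO cells, and 47.8% to 58.7% and 50.7% to 56.2% in the *Grk2* table. Shares of KO and NT cells overlapped in both spleen tables and met at 67.2% in the parenchyma.

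Few genes that act with class II molecules passed the test. Among genes of loading and turnover, 7 of 11 were tested in each table and 1 changed, *Ctsb*, a lysosomal cysteine protease. It had 474, 514 and 469 normalized counts in NT and 780, 995 and 886 in *Ets1*-KO cells of the parenchyma (log2 fold change 0.86, SE 0.08, limma adjusted p = 1.65e-22). Over all alternatives its adjusted p ranged from 2.3e-24 to 0.17, the highest without a variance trend. The tested genes with the next largest differences did not pass in any table, namely *Lgmn*, an endosomal protease (-0.43), and *Ifi30*, a thiol reductase (0.21), in the parenchyma, *Lgmn* (1.17) and *Ctss*, the protease that degrades the invariant chain (0.78), in the spleen *Ets1* table, and *Ifi30* (0.57) and *Marchf8*, a ubiquitin ligase (0.32), in the *Grk2* table. Medians of the list were 0, 0.03 and -0.01.

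None of the 6 tested factors of the class II promoter (7 listed, RFX, NF-Y and CREB subunits) passed in any table in limma or edgeR, with 1 at an unadjusted p under 0.05 in each. The largest differences were those of *Nfya* (-0.54) and *Nfyc* (-0.35) in the parenchyma, *Creb1* (-0.51) and *Nfyb* (-0.46) in the spleen *Ets1* table, and *Nfyb* (0.35) and *Rfxank* (-0.32) in the *Grk2* table. Medians were -0.25, -0.27 and -0.13.

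Among the genes reported here on the route from interferon-γ to *Ciita* (receptor chains, kinases, *Irf1* and *Socs1*), 5, 5 and 6 of 6 were tested in the order parenchyma, spleen *Ets1* and *Grk2*, and none passed in limma or edgeR, with 1, 0 and 2 at an unadjusted p under 0.05. *Socs1*, a feedback inhibitor, was at a log2 fold change of 0.25 and *Irf1*, an activator of *Ciita*, at -0.23 in the parenchyma. In the spleen the largest differences were those of *Jak2* (-0.21) and *Socs1* (-0.20) in *Ets1*-KO and of *Socs1* (-0.37) and *Ifngr2* (-0.29) in *Grk2*-KO cells. Medians were 0.02, -0.18 and -0.13.

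Class I presentation is set beside class II as a related pathway. The heavy chains of class I and the chains of class II sit in the RT1 region and share promoter factors. None of 12 tested class I genes passed in limma in any table, with 2, 2 and 1 at an unadjusted p under 0.05 in the order parenchyma, spleen *Ets1* and *Grk2*, and 0, 1 and 0 in edgeR. The medians were -0.05, 0.16 and -0.04. The largest difference was that of *RT1-A1*, a classical class I heavy chain, with 940, 1051 and 805 normalized counts in NT and 1378, 1077 and 1240 in *Ets1*-KO cells of the spleen (0.40, SE 0.12, limma adjusted p = 0.0785). It was followed there by *RT1-S3* (0.33). *RT1-A2* was at 0.26 in the parenchyma and 0.29 in the *Grk2* table, and *Tapbp*, the chaperone tapasin, at -0.21 and 0.14. Class I heavy chains are near-identical, so reads may be split among them.

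CD74 at the cell surface is known as a receptor of MIF that works with CD44 and CXCR4. Of 4 tested genes of this group, 1 fell in the parenchyma, none passed in the spleen *Ets1* table (2 at an unadjusted p under 0.05, 0 in edgeR) and 2 rose in the *Grk2* table. *Cd44* had 152, 173 and 147 normalized counts in NT and 95, 120 and 98.6 in *Ets1*-KO cells of the parenchyma (-0.59, SE 0.13, limma adjusted p = 0.000484). In *Grk2*-KO cells of the spleen *Cd44* was higher, at 511, 456 and 488 against 314, 387 and 390 (0.42, SE 0.08, limma adjusted p = 0.000408), as was *Cxcr4*, at 349, 315 and 240 against 230, 265 and 186 (0.41, SE 0.09, limma adjusted p = 0.00462). None of the 3 passed with DESeq2 (adjusted p = 0.133 for *Cd44* in the parenchyma, and 0.413 for *Cd44* and 0.929 for *Cxcr4* in the *Grk2* table) or without a variance trend, and those of the *Grk2* table did not pass without the replicate block or with replicate 1 or 2 left out. *Cxcr4* (-0.33) and *Mif* (0.23) in the parenchyma, and *Mif* (-0.42) and *Cxcr4* (-0.40) in the spleen *Ets1* table, did not pass.

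Because class II of rat T cells depends on activation, 6 activation genes were read alongside. In *Ets1*-KO cells of the parenchyma, *Il2ra* (the IL-2 receptor α chain, 0.62, limma adjusted p = 1.89e-12) and *Icos* (a costimulatory receptor, 0.20, limma adjusted p = 0.0421) rose, and *Mki67* (a proliferation marker, -1.15, limma adjusted p = 1.01e-15) and *Tnfrsf4* (OX40, -0.50, limma adjusted p = 0.00403) fell. In *Ets1*-KO cells of the spleen *Mki67* fell, from 1669, 1325 and 1819 to 950, 878 and 1195 normalized counts (-0.67, limma adjusted p = 0.00208), while *Ctla4* (0.54) and *Icos* (0.20) did not pass. In *Grk2*-KO cells *Il2ra* fell (-0.42, limma adjusted p = 0.00512), and *Tnfrsf4* (-0.62) and *Mki67* (0.25) did not pass. Without a variance trend none of these passed. *Icos* did not pass without the replicate block (adjusted p = 0.187), without the count minimum (0.157) or with replicate 1 or 2 left out, *Tnfrsf4* with DESeq2 (0.29) or without replicate 2, *Mki67* in the spleen without replicate 1 (0.397), and *Il2ra* in the *Grk2* table with DESeq2 (0.738), without the block (0.327) or with replicate 1 or 2 left out. The part of activation in the class II values was not tested.

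Beyond the group differences, the variation of the members between libraries of a group was described. With the group mean removed, pairwise correlations of the 5 members over 18 libraries ranged from 0.317 (*Cd74* and *RT1-Da*) to 0.846 (*RT1-Da* and *RT1-Bb*). Pairs of other genes were not computed for comparison. Of 6207 genes present above the minimum in all tables, the 10 other genes most like the mean of the members were *Cotl1* (0.884), *Kars* (0.881), *Cops6* (0.865), *Tmem41b* (0.834), *Slc35b4* (0.821), *LOC100364435* (0.798), *Babam1* (0.797), *Phlda1* (0.786), *Capzb* (0.785) and *Snrpd1* (0.783), and the 99th percentile over all genes was 0.668. None of the 9 marker genes that could be compared was among them. *Cd74* itself stood at 0.637, below that percentile although each member is part of the mean, and within the spleen *Ets1* table at -0.256. The libraries share depth and processing, and those of the *Grk2* table spread most in the mean of the members (from -0.436 to 0.595 on the log2 scale), so these values are a description.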

How the data were processed

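3′ mRNA-seq of sorted T-MBP cells was analysed in 18 libraries (3 per group, day 3). Per the methods and the submitters' processing notes, the authors aligned reads to Rnor_6.0 with STAR (2.7.2b), counted them per gene with HTSeq-count (1.0.0) and derived size factors with DESeq2 (poscounts). The deposited signal values are reads divided by the size factor, within each of 3 tables. Whole reads were recovered from them (100% whole within 0.01 of a read). Tables of the authors' own comparisons hold fold changes and p-values and were not used, nor were 8 columns of human values.

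Within a table, genes averaging 10 or more normalized counts across its 6 libraries entered limma (3.58.1, lmFit and eBayes with trend) as log2(normalized count + 1), with replicate number as a block, two-sided, and a Benjamini-Hochberg adjusted p under 0.05 over all genes tested was called. Few residual degrees of freedom per gene made these fits rest on the variance trend, so a fit without it was an alternative. Fold changes on this scale understate the change of low genes. Tissues were compared by limma on log2 ratios of same-numbered libraries. edgeR (4.0.16) and DESeq2 (1.42.0) on recovered reads, other scalings, filters and pseudocounts, and leaving out each replicate were alternatives. Scripts were tested on simulated data. Levels across tables are CPM, reads scaled to 1000000 reads on genes. The weight of the trend, as prior degrees of freedom, was infinite in the parenchyma, 22 in the spleen *Ets1* and 141 in the *Grk2* table. In the parenchyma the SE and p of a gene thus come from the trend over all genes. They do not measure the spread of that gene's own libraries. Nothing in the labels says which libraries share a rat, so the p-values do not measure spread between animals.

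The members and all lists were chosen with earlier results of these data known. Named were all members, of each list every gene called or the 2 largest differences where fewer than 2 were called, the 10 genes most like the members, and the edited genes. Lists were class II loading and turnover, class II promoter factors, the interferon-γ route, class I presentation, CD74 ligands and co-receptors, activation genes, and markers of T, myeloid, B, dendritic, thymic and neural cells. An item of the interferon-γ route is not reported here.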

Additional observations from a re-analysis of the deposited data

Results flagged for a closer look

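Of the members and the genes named from the lists, 2 had a difference between *Ets1*-KO and NT cells that itself differed between parenchyma and spleen in limma on the log2 ratios of same-numbered libraries (3 ratios per tissue, adjusted over 6520 genes). The log2 fold change of *Ctsb* was higher in the parenchyma by 0.83 (SE 0.15, adjusted p = 0.000991). That of *Il2ra* was higher by 0.72 (SE 0.14, adjusted p = 0.00347). Neither is a class II gene, and tissue and sequencing depth differ together between the tables. The lists were chosen with earlier results of these data known. Fewer genes passed in this comparison without a variance trend or with a replicate left out, as given below. Groups of 3 libraries are too small to test for a single library far from the others.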

How the results depend on the processing

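Every member kept the sign of its fitted difference in all 3 comparisons under every alternative that gave a value, and scaling moved the median of all genes by less than 0.1. Counts of calls did depend on the fit. In the order parenchyma, spleen *Ets1* and spleen *Grk2*, 366, 155 and 109 genes and 1, 3 and 4 members passed. Without a variance trend 3, 0 and 0 genes and 0, 0 and 0 members did. With DESeq2 90, 48 and 9 genes passed, and 1, 2 and 1 members, with no adjusted p for 3, 3 and 2 of the 5. Without the replicate block 200, 71 and 19 genes passed, and 2 members in *Grk2*. Same-numbered KO and NT libraries correlated in their deviations at 0.126, 0.159 and -0.00299 in the parenchyma, 0.0889, 0.0768 and 0.175 in the spleen *Ets1* and 0.144, 0.00617 and 0.122 in the *Grk2* table, so the numbers were not shown to pair the libraries, and the block was kept because the methods correct per animal. Without the count minimum 212 genes passed in the parenchyma and 242 in the spleen *Ets1* table. With a minimum of 50, which fewer members reach, 60 genes and 2 members passed in *Grk2*, and the members' median difference between tissues was 0.38 in place of 0.50. edgeR gave 238 (TMM) and 241 (RLE) genes in the spleen *Ets1* table. Leaving out each replicate in turn gave 165 to 278, 3 to 241 and 9 to 48 genes, 1 to 1, 0 to 4 and 1 to 3 members, and members' medians of -0.43 to -0.11, -0.77 to -0.61 and -1.04 to -0.98. For the difference between tissues 137 genes passed, 2 without the trend, and 26 to 96 with a replicate left out, with members' medians of 0.40 to 0.54. Leaving out the third NT library of the spleen *Ets1* table was chosen after seeing the data and gave 207 genes. Of the called genes, the part higher in KO cells was 43.4%, 45.8% and 59.6%, and 54.8% with edgeR in the parenchyma, 56.8% with upper quartile scaling in the spleen *Ets1* table and 45.3% with quantile scaling in *Grk2*. Of the genes named from the lists, *Icos* and *Tnfrsf4* in the parenchyma, *Mki67* in the spleen *Ets1* table and *Cxcr4*, *Cd44* and *Il2ra* in the *Grk2* table no longer passed when replicate 1, replicate 2 or either was left out. With DESeq2 *Cd44* and *Tnfrsf4* in the parenchyma and *Cxcr4*, *Cd44* and *Il2ra* in *Grk2* did not pass, without the block *Icos* and the latter 3 did not, without the count minimum *Icos* did not, and without the trend none did. The cause of these changes was not tested. Depth limits *Ciita*, *RT1-DMa* and *RT1-DMb*, and genes near the minimum such as *RT1-Bb*.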

Other observations

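Neural transcripts were read as a further list. Markers of neural cells summed to 50.1 to 64.7 CPM in NT and 34.5 to 58.8 in *Ets1*-KO cells of the parenchyma, to 17.8 to 26.4 and 17.3 to 23.6 in the spleen *Ets1* table, and to 28.2 to 35.6 and 20.9 to 29.9 in the *Grk2* table. Of the 7 genes, 1 was tested in each table and did not pass.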
